A study of Mus musculus with 23 samples.

Results

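Homeostatic microglia genes are the transcripts that mark the resting state of microglia, the resident macrophages of the brain. The 9 genes described here were P2ry12, P2ry13, Tmem119, Cx3cr1, Csf1r, Olfml3, Siglech, Sall1 and Gpr34. They were picked by symbol from the 37173 genes of the deposited count table, and all 9 passed the filter on low counts with 19423 genes in all. Their levels were followed in the hippocampi of mice of 4 genotypes, at about 5 months of age, with 1 poly-A RNA library per mouse. The groups were APP NLGF P16 KO (both alleles homozygous, n = 6), APP NLGF (APP NLGF/NLGF, n = 5), P16 KO (P16 KO/KO, n = 6) and WT (n = 6). The labels name no treatment in any group.

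The NLGF allele is a knock-in, in which the mouse's own App gene carries a humanised amyloid sequence with familial Alzheimer mutations, so that amyloid accumulates without a transgene promoter. P16 is the cell cycle inhibitor encoded by Cdkn2a, a marker of senescent cells. The labels do not say which part of Cdkn2a is deleted, in which cells, or on which strain background the alleles were kept. The gene table does not separate the p16 transcript from the Arf transcript of the same gene. Cdkn2a held 24 reads over the APP NLGF P16 KO libraries, 25 over APP NLGF, 4 over P16 KO and 17 over WT. A loss of reads was not shown by exact permutation tests of CPM, the counts of a gene per 1e6 counts of its library (two-sided p = 0.595 for APP NLGF P16 KO against APP NLGF and p = 0.0649 for P16 KO against WT). Directions that involve p16 therefore refer to the libraries by their labels.

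Microglia keep their resting state under signals from neurons and other cells. Colony stimulating factor 1 and interleukin 34 act on the receptor Csf1r and keep the cells alive. Neuronal fractalkine, the product of Cx3cl1, acts on Cx3cr1, and transforming growth factor beta, from Tgfb1, maintains the transcription programme that Sall1 and the factor PU.1 (Spi1) help to run. P2ry12 and P2ry13 are purine receptors through which microglia sense adenosine diphosphate, and P2ry12 directs their processes to damage. Around amyloid plaques microglia are known to enter an activated state with higher Cst7, Clec7a and Trem2, and in isolated cells that state is known for lower P2ry12, Tmem119 and Cx3cr1.

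All members lay at coordinates of mouse build GRCm38. P2ry12 (ENSMUSG00000036353, chromosome 3, 59216272 to 59262871, minus strand) and P2ry13 (ENSMUSG00000036362, chromosome 3, 59207892 to 59210882, minus strand) are neighbours. Both lie inside Med12l, which is on the opposite strand. Olfml3 (ENSMUSG00000027848, 103722222 to 103738001, minus strand) is on the same chromosome. Tmem119 (ENSMUSG00000054675) is at 113793729 to 113800516 on chromosome 5, Siglech (ENSMUSG00000051504) at 55768178 to 55778925 on chromosome 7, and Sall1 (ENSMUSG00000031665) at 89027235 to 89044162 on chromosome 8. Cx3cr1 (ENSMUSG00000052336) spans 119901616 to 120069879 on chromosome 9, and that annotated span overlaps Gorasp1, Csrnp1 and Xirp1 on the same strand. Csf1r (ENSMUSG00000024621) is at 61100598 to 61132149 on chromosome 18, and Gpr34 (ENSMUSG00000040229) is at 13632089 to 13640858 on chromosome X, inside Cask on the opposite strand. On the opposite strand, Wdr48 and Ttc21a also overlap the span of Cx3cr1, and Hmgxb3 overlaps Csf1r. The strand setting of the gene counting is not given in the sources used here. Reads of these opposite-strand genes, Med12l and Cask included, that fall in a member's exons may therefore not be separated from the member's own.

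Total counts were 40.7e6 to 61.2e6 per library. In a principal component analysis APP NLGF 15, APP NLGF 16 and APP NLGF P16 KO 23 stood apart from the other libraries on the second component, and APP NLGF P16 KO 21 was the extreme library on the first. Results that rest on them are given with and without them. In whole tissue, a change in the number of microglia and a change in RNA per microglial cell cannot be told apart.

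Promoters are shown for 4 members, because they bear on which neighbours and which movers share letters upstream. P2ry13 and Olfml3 were among the members that passed the test for the App knock-in, Siglech passed in APP NLGF against P16 KO, and P2ry12 is the neighbour of P2ry13 that did not pass. The RefSeq promoter table (GRCm38.p6), which runs from 250 bases before to 50 bases after a gene's start, held 6 of the 9 members. Each sequence reads 5′ to 3′ on the gene's own strand. Capitals mark GAGGAA, core letters of PU.1 sites, or its reverse complement TTCCTC.
P2ry13 (chr3:59210833-59211132, minus strand): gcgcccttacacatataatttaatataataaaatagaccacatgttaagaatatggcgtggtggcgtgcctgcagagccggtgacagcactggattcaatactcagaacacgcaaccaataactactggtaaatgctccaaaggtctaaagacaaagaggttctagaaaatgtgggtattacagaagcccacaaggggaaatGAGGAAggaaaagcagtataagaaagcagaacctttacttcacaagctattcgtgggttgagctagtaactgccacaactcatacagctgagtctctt
P2ry12 (chr3:59262936-59263235, minus strand): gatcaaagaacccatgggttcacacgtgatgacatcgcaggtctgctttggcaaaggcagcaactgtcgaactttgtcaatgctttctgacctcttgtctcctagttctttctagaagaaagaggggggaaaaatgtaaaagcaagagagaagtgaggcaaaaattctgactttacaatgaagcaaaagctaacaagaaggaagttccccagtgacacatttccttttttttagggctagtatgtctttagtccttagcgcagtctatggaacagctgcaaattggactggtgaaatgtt
Olfml3 (chr3:103737952-103738251, minus strand): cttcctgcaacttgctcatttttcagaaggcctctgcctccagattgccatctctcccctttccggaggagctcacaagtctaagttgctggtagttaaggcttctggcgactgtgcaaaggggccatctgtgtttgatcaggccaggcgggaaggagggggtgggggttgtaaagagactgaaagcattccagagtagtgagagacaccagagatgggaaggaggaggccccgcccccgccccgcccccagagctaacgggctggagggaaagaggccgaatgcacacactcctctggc
Siglech (chr7:55767934-55768233, plus strand): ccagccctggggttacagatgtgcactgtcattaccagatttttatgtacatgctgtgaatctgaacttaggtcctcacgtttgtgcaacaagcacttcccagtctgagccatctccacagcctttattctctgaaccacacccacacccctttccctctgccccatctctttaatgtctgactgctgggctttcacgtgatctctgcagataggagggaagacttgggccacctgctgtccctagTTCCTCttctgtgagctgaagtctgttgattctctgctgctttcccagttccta

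GAGGAA, on either strand and with no overlap between matches, was present in 2 of the 6 members with a promoter. These 6 members had 8 promoters between them. In P2ry13 it began at position -48 from the start, as printed, and in Siglech at position -4 as the reverse complement. The same letters were in 28.3% of the 32851 promoters in the table. That is a share of promoters and not of genes, and 2 of 6 members is close to it. The longer GAGGAAGT, or ACTTCCTC on the other strand, was in 0 of the 6 members and in 3.20% of all promoters. These matches describe letters in a window and do not show binding.

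Per kilobase of exon, P2ry12 and Csf1r were the most abundant members, with 18.8 and 16.1 CPM per kb as means over the 4 genotypes. Tmem119 (10.7 CPM per kb), Cx3cr1 (10.7) and Gpr34 (7.97), a receptor gene for the lipid lysophosphatidylserine, came next. P2ry13 stood at 6.31 CPM per kb, Olfml3, a secreted matrix protein gene, at 4.16, Siglech, a sialic acid binding lectin gene, at 4.04 and the zinc finger factor gene Sall1 at 3.37. Every member was supported by at least 506 reads in every library.

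**Figure D1:**
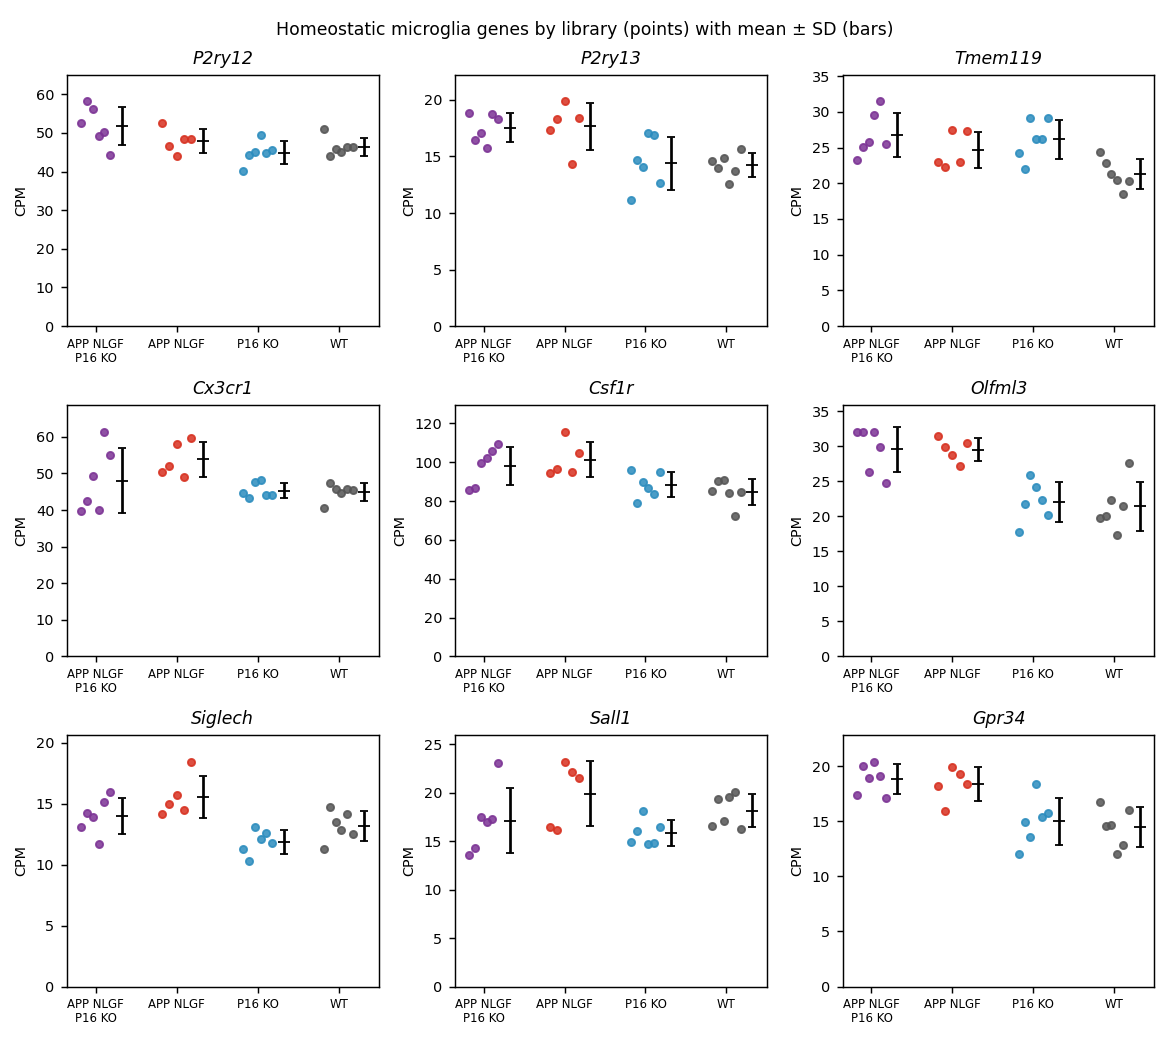
CPM (y axis) of each homeostatic gene in each library (points), with the mean ± SD of each genotype (bars), for APP NLGF P16 KO (n = 6), APP NLGF (n = 5), P16 KO (n = 6) and WT (n = 6). In the Olfml3 panel the APP NLGF libraries lie between 27.2 and 31.5 CPM, and 1 WT library at 27.6 CPM reaches that range.

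The App knock-in was tested in 2 pairs of genotypes, APP NLGF P16 KO against P16 KO and APP NLGF against WT, and as the average of both. None of the homeostatic genes fell in these comparisons. On average over both pairs 3 of 9 members rose (Olfml3, Gpr34 and P2ry13), and 0.793% of all genes tested passed in either direction, and 0.649% passed upwards. All 9 members had a positive log2 fold change, with a median of 0.21 against -4e-04 over all genes tested, of which 49.8% were positive. The members were chosen with earlier results of these data known, so these counts are a description. Gene tests are edgeR quasi-likelihood tests adjusted by Benjamini-Hochberg over all genes tested, and log2 fold changes are given ± SE.

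Olfml3 had the largest change of the members. It ran from 24.8 to 32.1 CPM in APP NLGF P16 KO (median 31.0), against 17.7 to 26.0 CPM in P16 KO (median 22.1). APP NLGF libraries had 31.5, 29.9, 28.7, 27.2 and 30.4 CPM, against 17.4 to 27.6 CPM in WT (median 20.7). Each group with the knock-in lay mostly above its partner, and the ranges met at 1 library of each partner. Olfml3 rose by log2 0.44 ± 0.07 on average (36.0% higher, 95% interval 0.30 to 0.59, adjusted p = 4.35e-04). In APP NLGF against WT the change was 0.46 ± 0.10 (adjusted p = 0.0321, above the WT mean in 5 of 5 libraries), the only member called there, where 0.319% of genes passed and 0.304% passed upwards. In APP NLGF P16 KO against P16 KO it was 0.42 ± 0.10 and missed the threshold (adjusted p = 0.0635, 6 of 6 libraries above the P16 KO mean). No member was called in that pair, where 0.247% of genes passed. At an unadjusted p under 0.05 there were 6 of 9 members and 7.89% of all genes tested. DESeq2 called Olfml3 there (adjusted p = 0.0112, and 0.0112 to 0.654 over the 9 alternatives). Without APP NLGF 15, APP NLGF 16 and APP NLGF P16 KO 23 its call moved between the pairs while both estimates were larger, with log2 0.47 ± 0.10 in APP NLGF P16 KO against P16 KO (adjusted p = 0.0414) and 0.51 ± 0.11 in APP NLGF against WT (adjusted p = 0.0607), and the average kept its call (adjusted p = 6.60e-04).

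Gpr34 was next. It ran from 17.1 to 20.4 CPM in APP NLGF P16 KO (median 19.0), against 12.0 to 18.4 CPM in P16 KO (median 15.1). APP NLGF libraries had 18.2, 15.9, 19.9, 19.3 and 18.4 CPM, against 12.0 to 16.8 CPM in WT (median 14.6). The groups overlapped in both pairs, by the highest libraries of the partners without the knock-in. Gpr34 rose by log2 0.34 ± 0.06 on average (26.2% higher, adjusted p = 0.00635), with 0.33 ± 0.09 in APP NLGF P16 KO against P16 KO (adjusted p = 0.203) and 0.34 ± 0.09 in APP NLGF against WT (adjusted p = 0.161). The calls of Olfml3 and Gpr34 on average held when each of the 23 libraries was left out in turn, with adjusted p up to 0.00145 for Olfml3 and up to 0.0190 for Gpr34.

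P2ry13 had 15.7 to 18.8 CPM in APP NLGF P16 KO (median 17.7), against 11.1 to 17.1 CPM in P16 KO (median 14.4). APP NLGF libraries had 17.3, 18.3, 19.9, 14.4 and 18.4 CPM, against 12.6 to 15.7 CPM in WT (median 14.3). Of the APP NLGF libraries 1, at 14.4 CPM, lay within the WT range. P2ry13 rose by log2 0.30 ± 0.07 on average (22.8% higher, adjusted p = 0.0261). The pairs gave 0.28 ± 0.09 (APP NLGF P16 KO against P16 KO, adjusted p = 0.361) and 0.31 ± 0.10 (APP NLGF against WT, adjusted p = 0.279). Its average call was lost when WT 4, APP NLGF 14, APP NLGF 15 or APP NLGF 17 was left out (adjusted p up to 0.0695).

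Its neighbour P2ry12, a receptor widely used to mark resting microglia, had 44.2 to 58.1 CPM in APP NLGF P16 KO (median 51.5), against 40.2 to 49.6 CPM in P16 KO (median 44.9). APP NLGF libraries had 52.6, 46.5, 44.0, 48.3 and 48.5 CPM, against 44.1 to 50.9 CPM in WT (median 46.0). The APP NLGF and WT libraries overlapped almost fully, while most APP NLGF P16 KO libraries lay above all those of P16 KO. The average difference was log2 0.13 ± 0.04 (adjusted p = 0.264), with 0.21 ± 0.06 in APP NLGF P16 KO against P16 KO (adjusted p = 0.290) and 0.05 ± 0.06 in APP NLGF against WT (adjusted p = 0.909, 95% interval -0.09 to 0.18). The difference between those values is the interaction, which was 0.16 ± 0.09 (adjusted p = 0.897).

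Csf1r, the receptor that microglia need to survive, had 85.8 to 109 CPM in APP NLGF P16 KO (median 101), against 79.0 to 95.8 CPM in P16 KO (median 88.5). APP NLGF libraries had 94.4, 96.7, 116, 94.9 and 105 CPM, against 72.4 to 90.9 CPM in WT (median 85.1). All 5 APP NLGF libraries lay above all 6 WT libraries. Csf1r differed by log2 0.21 ± 0.05 on average (15.3% higher, adjusted p = 0.0511), just outside the threshold, and DESeq2 called it (adjusted p = 0.0198, and 0.0198 to 0.998 over the alternatives). The pairs gave 0.15 ± 0.07 (APP NLGF P16 KO against P16 KO, adjusted p = 0.601) and 0.26 ± 0.07 (APP NLGF against WT, adjusted p = 0.185).

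Cx3cr1, the fractalkine receptor, was the other member whose APP NLGF libraries did not overlap WT, and 1.05% of genes tested showed that separation upwards. APP NLGF libraries had 50.4, 51.9, 58.2, 49.0 and 59.7 CPM, against 40.5 to 47.5 CPM in WT (median 45.6). APP NLGF P16 KO libraries were the most spread, from 39.7 to 61.4 CPM (median 45.9), against 43.3 to 48.2 CPM in P16 KO (median 44.4). The APP NLGF P16 KO range enclosed the P16 KO range. The differences were 0.08 ± 0.08 in APP NLGF P16 KO against P16 KO (adjusted p = 0.843), 0.26 ± 0.09 in APP NLGF against WT (adjusted p = 0.361) and 0.17 ± 0.06 on average (adjusted p = 0.266). The interaction was -0.18 ± 0.12 (adjusted p = 0.897), so a difference between the pairs was not shown.

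Siglech differed by 0.24 ± 0.06 on average (18.0% higher, adjusted p = 0.0551 by edgeR and 0.0166 by DESeq2, and 0.0166 to 0.998 over the alternatives). The pairs gave 0.24 ± 0.08 (APP NLGF P16 KO against P16 KO, adjusted p = 0.388) and 0.24 ± 0.09 (APP NLGF against WT, adjusted p = 0.404). Siglech was thus near the threshold with like estimates in both pairs. Sall1, a transcription factor that sets microglial identity, differed by 0.12 ± 0.08 on average (adjusted p = 0.631), by 0.11 ± 0.11 in APP NLGF P16 KO against P16 KO (adjusted p = 0.839) and by 0.13 ± 0.11 in APP NLGF against WT (adjusted p = 0.807). Without the 3 libraries that stood apart, the estimate for Sall1 was -0.0027 on average, so its sign rested on them. Tmem119, a membrane protein gene used to tell microglia from other macrophages, differed by 0.12 ± 0.06 on average (adjusted p = 0.503), by 0.03 ± 0.08 in APP NLGF P16 KO against P16 KO (adjusted p = 0.940) and by 0.21 ± 0.09 in APP NLGF against WT (adjusted p = 0.527).

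**Figure D2:**
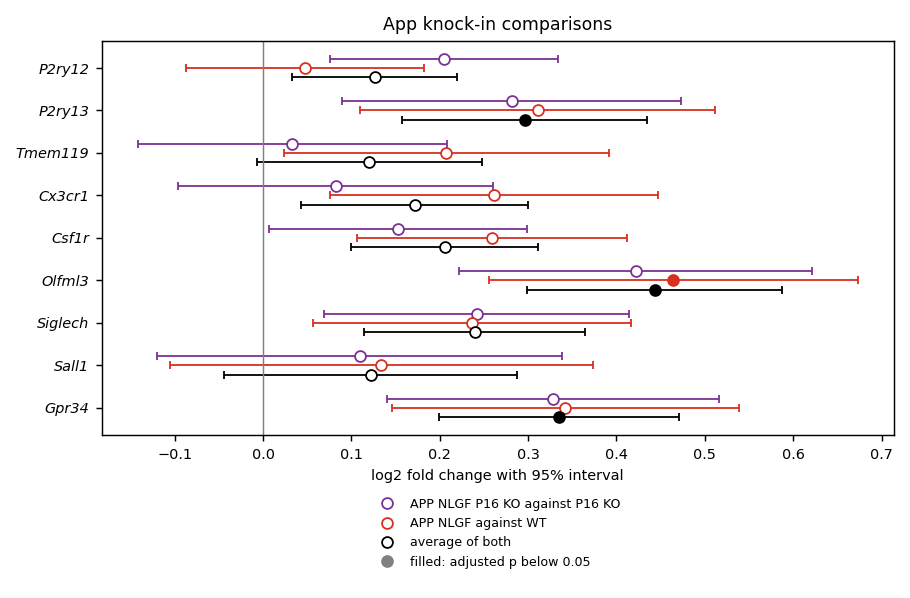
Log2 fold change (x axis) with its 95% interval for each homeostatic gene in APP NLGF P16 KO against P16 KO, in APP NLGF against WT, and as the average of both. Filled points have an adjusted p below 0.05, which holds for P2ry13, Olfml3 and Gpr34 on average and for Olfml3 in APP NLGF against WT.

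Genes that other myeloid cells share with microglia moved as well, and those values stand beside the counts above. Of 12 pan-myeloid genes 6 rose in the App average, with a median of 0.30. They included Fcer1g, an Fc receptor chain (log2 0.52 ± 0.07, adjusted p = 8.02e-05), Laptm5, a lysosomal membrane protein gene of blood cells (0.45 ± 0.08, adjusted p = 0.00155), Cd53, a tetraspanin gene (0.37 ± 0.07, adjusted p = 0.00190), and Aif1, which encodes the microglial stain Iba1 (0.41 ± 0.10, adjusted p = 0.0491). The other 2 were the Fc receptor gene Fcgr3 (0.43 ± 0.08, adjusted p = 0.00367) and Ptprc, the leukocyte phosphatase gene (0.46 ± 0.10, adjusted p = 0.0127). Their summed level was 204 to 226 CPM in APP NLGF P16 KO, 185 to 219 CPM in APP NLGF, 177 to 202 CPM in P16 KO and 159 to 182 CPM in WT. With the mean log2 level of this list as a covariate, 0 of the 9 members were called in the App average. Calls over all genes were not counted in that fit, so this 0 cannot be set against a background share. Olfml3 then had log2 0.46 ± 0.14 (adjusted p = 0.922), Gpr34 0.28 ± 0.14 and P2ry13 0.27 ± 0.14 (adjusted p = 0.998 for both), while Csf1r had -0.05 ± 0.08 and Cx3cr1 -0.03 ± 0.12. The standard error of Olfml3 was 0.14 with the covariate and 0.07 without it, and the list itself differed between the genotypes, as above. Log2 levels less the list's mean were also taken, without a test. In APP NLGF and WT they averaged 1.68 and 1.55 for Olfml3, 0.991 and 0.996 for Gpr34, and 0.931 and 0.977 for P2ry13. Csf1r had 3.45 and 3.55, and Cx3cr1 2.54 and 2.63. P2ry12 had 2.38 and 2.68, Sall1 1.10 and 1.33, Tmem119 1.41 and 1.56, and Siglech 0.752 and 0.867. Of the 9 members only Olfml3 was higher in APP NLGF than in WT on this scale. In APP NLGF P16 KO and P16 KO, Olfml3 had 1.69 and 1.52, Gpr34 1.04 and 0.958, and P2ry13 0.936 and 0.897. There Csf1r had 3.42 and 3.52, and Cx3cr1 2.37 and 2.56. P2ry12 had 2.49 and 2.55, Sall1 0.883 and 1.05, Tmem119 1.54 and 1.76, and Siglech 0.612 and 0.629. In that pair Olfml3, Gpr34 and P2ry13 were higher with the knock-in, and the other members were lower. The part of cell number in these results was not tested.

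Markers of macrophages at the borders of the brain did not pass in the App average, with 0 of 12 genes called and a median of -0.02. Their summed level was 38.5 to 46.9 CPM in APP NLGF P16 KO, 40.8 to 58.8 CPM in APP NLGF, 40.2 to 45.8 CPM in P16 KO and 39.0 to 53.8 CPM in WT. The most abundant were Maf, a transcription factor gene (log2 -0.03 ± 0.05, adjusted p = 0.905), and Stab1, a scavenger receptor gene (0.05 ± 0.07, adjusted p = 0.869). The defining markers Mrc1 and Lyve1 were at 3.33 to 3.95 CPM and 0.491 to 0.692 CPM as group means. Of 12 monocyte and neutrophil genes 5 passed the filter on low counts and 0 of these were called. Their summed level was 16.3 to 30.7 CPM in APP NLGF P16 KO, 23.9 to 33.1 CPM in APP NLGF, 20.7 to 32.7 CPM in P16 KO and 20.9 to 29.5 CPM in WT, and the most abundant was Vcan, which other brain cells also express (log2 -0.06 ± 0.10, adjusted p = 0.902), followed by the integrin gene Itgal (0.11 ± 0.20, adjusted p = 0.908). Ly6c2, a monocyte gene, was near 0 in every group, with group means of 0.0291 to 0.0439 CPM.

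Of 29 other homeostatic genes 6 rose in the App average and 0 fell, with a median of 0.15. Among them Lag3, an inhibitory receptor gene, rose by log2 0.69 ± 0.10 (adjusted p = 1.25e-04), Cd33, a sialic acid receptor gene linked to Alzheimer risk in people, by 0.32 ± 0.06 (adjusted p = 0.00197) and Selplg, a selectin ligand gene, by 0.30 ± 0.06 (adjusted p = 0.00904). Vsir, an immune checkpoint gene, rose by 0.25 ± 0.05 (adjusted p = 0.00826) and Lpcat2, a lipid remodelling enzyme gene, by 0.25 ± 0.05 (adjusted p = 0.0115). Some genes of this list were far more abundant than the members. Group means were 327 to 397 CPM for Sparc and 336 to 391 CPM for Rhob, against 84.7 to 101 CPM for Csf1r. Whole tissue does not tell which cells such reads came from.

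Some plaque-induced genes changed far more. Of 28 in that list 14 rose in the App average and 0 fell, with a median of 0.24. Cst7, a cystatin gene of plaque-associated microglia, averaged 4.67 ± 1.13 CPM in APP NLGF P16 KO, 5.93 ± 1.57 CPM in APP NLGF, 0.130 ± 0.0985 CPM in P16 KO and 0.178 ± 0.106 CPM in WT (SD). It rose by log2 5.08 ± 0.24 (adjusted p = 1.25e-12). Clec7a, a glucan receptor gene, rose by 2.80 ± 0.17 (adjusted p = 4.05e-11), the integrin gene Itgax by 2.71 ± 0.18 (adjusted p = 1.23e-10) and the chemokine gene Ccl6 by 1.81 ± 0.11 (adjusted p = 8.49e-11). Trem2, the lipid receptor that drives this state, rose by 0.93 ± 0.06 (adjusted p = 1.54e-10), and the lysosomal gene Cd68 by 0.92 ± 0.06 (adjusted p = 1.98e-10). The changes of the 9 members, from 0.12 to 0.44, were small beside these named genes. The medians were closer, at 0.21 for the members and 0.24 for the whole plaque-induced list.

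**Figure D3:**
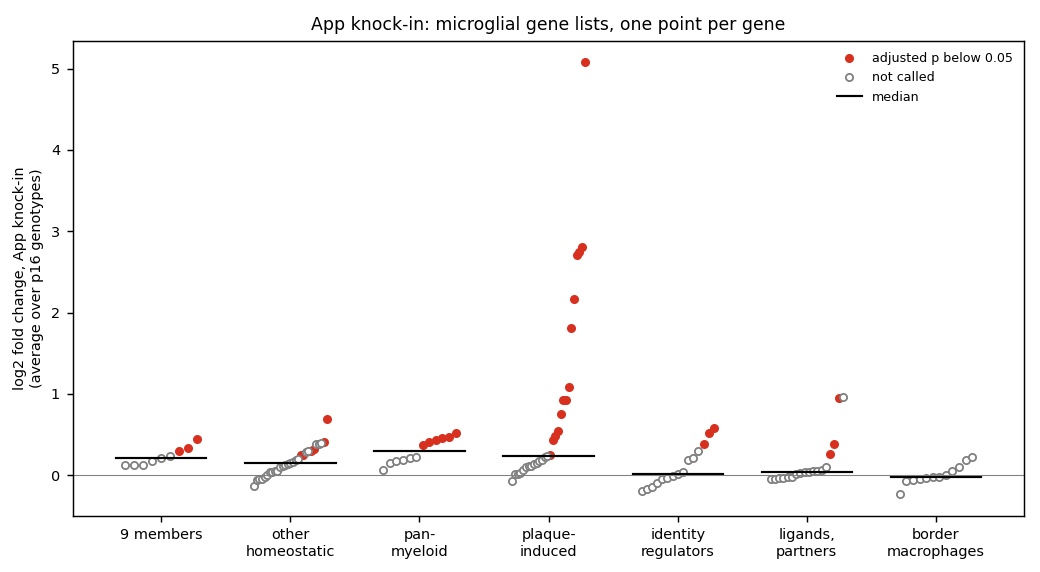
Log2 fold change for the App knock-in, averaged over the p16 genotypes (y axis), with 1 point per gene for the 9 members and 6 other lists, and a bar at each list's median. Filled points have an adjusted p below 0.05. The members' median is 0.21, the other homeostatic genes' 0.15 and the border macrophages' -0.02, and Cst7 is the highest point at 5.08.

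None of the 3 ligands of the members, Cx3cl1, Il34 and Csf1, passed the test for the App knock-in. Cx3cl1, the fractalkine gene of neurons, averaged 588 ± 65.8 CPM in APP NLGF P16 KO, 573 ± 29.4 CPM in APP NLGF, 602 ± 32.5 CPM in P16 KO and 599 ± 20.3 CPM in WT (SD). Its App average was -0.05 ± 0.04 (adjusted p = 0.765). Il34 had 0.05 ± 0.05 (adjusted p = 0.774) and Csf1 0.06 ± 0.05 (adjusted p = 0.782). Of 18 ligands and signalling partners 3 rose, and 0 fell. They were Tyrobp, the adaptor of Trem2 (0.95 ± 0.06, adjusted p = 1.23e-10), Tgfb1 (0.39 ± 0.09, adjusted p = 0.0272) and its receptor Tgfbr2 (0.26 ± 0.05, adjusted p = 0.00636). The partner receptor Tgfbr1 had 0.11 ± 0.04 (adjusted p = 0.295). Of 15 tested regulators of microglial identity 3 rose, the factor genes Spi1 (0.39 ± 0.08, adjusted p = 0.00826), Irf8 (0.58 ± 0.08, adjusted p = 6.24e-05) and Runx1 (0.52 ± 0.10, adjusted p = 0.00959).

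Of the marker genes of other brain cells, 0 of 10 neuronal, 0 of 10 oligodendrocyte and 0 of 10 endothelial genes were called in the App average. Abundant examples were Camk2a (-0.04 ± 0.05, adjusted p = 0.862) and Snap25 (0.03 ± 0.04, adjusted p = 0.877) of neurons, Mbp of myelin (0.12 ± 0.09, adjusted p = 0.678), and Slco1a4 (0.06 ± 0.07, adjusted p = 0.832) and Flt1 (0.02 ± 0.07, adjusted p = 0.966) of vessels. Of 10 astrocyte genes 1 was called, Gfap, the filament gene of reactive astrocytes, which rose by log2 0.52 ± 0.06 (adjusted p = 1.49e-05).

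P16 loss was tested in APP NLGF P16 KO against APP NLGF, in P16 KO against WT, and as their average. The homeostatic genes as a group did not move one way. In the average 6 of 9 had a positive estimate with a median of 0.0092, against 0.0038 over all genes tested. Tmem119 alone was called, upwards, and 13.0% of all genes tested were called in that average, 7.66% upwards, so 1 of 9 is near the background. In each pair 0 members were called, where 0.0309% of genes passed in APP NLGF P16 KO against APP NLGF and 0.309% in P16 KO against WT. These shares of all genes depended on single libraries. Leaving out 1 library gave 762 to 5117 genes called in the p16 average, against 2522 with all. It gave 2 to 4156 in APP NLGF P16 KO against APP NLGF (6 with all) and 7 to 239 in P16 KO against WT (60 with all). At an unadjusted p under 0.05 there were 0 of 9 members in APP NLGF P16 KO against APP NLGF, where 23.5% of all genes tested were under it, and 1 of 9 in P16 KO against WT, where 15.8% were, so that 1 is near the background. DESeq2 called 0 members in APP NLGF P16 KO against APP NLGF and called Tmem119 in P16 KO against WT (adjusted p = 0.0421, and 0.0421 to 0.194 over the 9 alternatives that are not omissions of 1 library).

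Tmem119 had 23.2 to 31.4 CPM in APP NLGF P16 KO (median 25.6), and APP NLGF libraries had 23.0, 22.3, 27.4, 23.0 and 27.3 CPM. It had 22.1 to 29.1 CPM in P16 KO (median 26.2), against 18.5 to 24.4 CPM in WT (median 20.9). WT libraries were the lowest group, and all 6 P16 KO libraries lay above the WT mean. Tmem119 rose by log2 0.21 ± 0.06 on average (15.6% higher, adjusted p = 0.0289), with 0.12 ± 0.09 in APP NLGF P16 KO against APP NLGF (adjusted p = 0.400) and 0.30 ± 0.08 in P16 KO against WT (adjusted p = 0.0974). Its average call was lost when WT 5, P16 KO 9, P16 KO 12, APP NLGF 16 or APP NLGF P16 KO 21 was left out (adjusted p up to 0.0731).

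Sall1 and Siglech had the opposite sign. Sall1 had 13.5 to 23.1 CPM in APP NLGF P16 KO (median 17.1), and APP NLGF libraries had 16.4, 16.1, 23.2, 22.2 and 21.6 CPM. It had 14.7 to 18.1 CPM in P16 KO (median 15.5), against 16.3 to 20.1 CPM in WT (median 18.2). All 6 P16 KO libraries lay below the WT mean. The difference was -0.21 ± 0.08 on average (adjusted p = 0.0786), -0.22 ± 0.11 in APP NLGF P16 KO against APP NLGF (adjusted p = 0.242) and -0.19 ± 0.11 in P16 KO against WT (adjusted p = 0.384). The average was called without APP NLGF 14 or without APP NLGF P16 KO 23 (adjusted p down to 0.00837).

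Siglech had 11.7 to 16.0 CPM in APP NLGF P16 KO (median 14.1), and APP NLGF libraries had 14.1, 15.0, 15.7, 14.5 and 18.4 CPM. It had 10.3 to 13.1 CPM in P16 KO (median 11.9), against 11.3 to 14.7 CPM in WT (median 13.2). The pairs overlapped, and all 6 P16 KO libraries again lay below the WT mean. The difference was -0.15 ± 0.06 on average (adjusted p = 0.0850), -0.15 ± 0.09 in APP NLGF P16 KO against APP NLGF (adjusted p = 0.288) and -0.15 ± 0.08 in P16 KO against WT (adjusted p = 0.361). It passed without WT 1 or APP NLGF P16 KO 23 (adjusted p down to 0.0329). Cx3cr1 had -0.17 ± 0.09 in APP NLGF P16 KO against APP NLGF (adjusted p = 0.252) and 0.01 ± 0.08 in P16 KO against WT (adjusted p = 0.959), and its average of -0.08 ± 0.06 did not pass (adjusted p = 0.421). The other 5 members, P2ry12, P2ry13, Csf1r, Olfml3 and Gpr34, had p16 averages between 0.0042 and 0.0438 on the log2 scale. Their differences ran from -0.0442 for Csf1r to 0.109 for P2ry12 in APP NLGF P16 KO against APP NLGF, and from -0.0484 for P2ry12 to 0.0626 for Csf1r in P16 KO against WT.

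**Figure D4:**
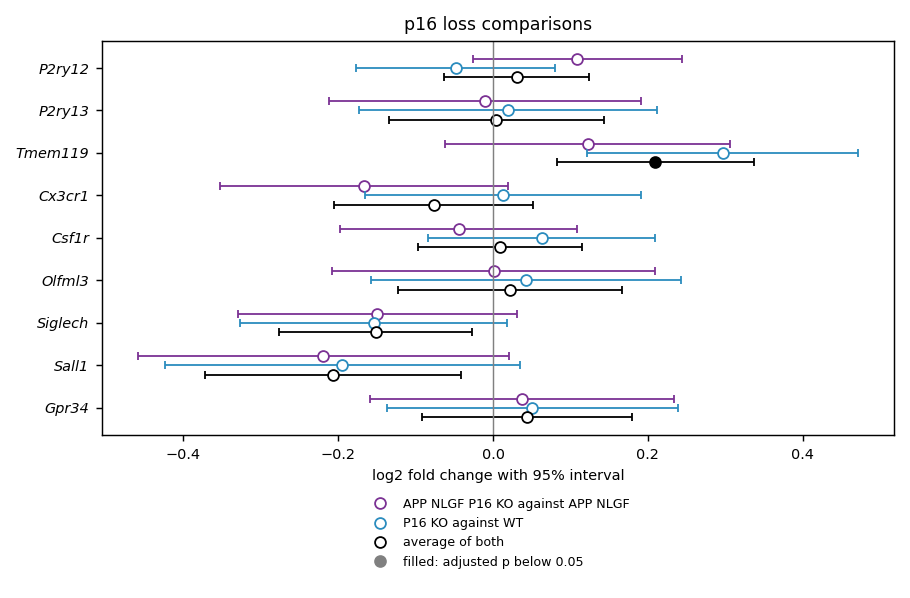
Log2 fold change (x axis) with its 95% interval for each homeostatic gene in APP NLGF P16 KO against APP NLGF, in P16 KO against WT, and as the average of both. Only the average of Tmem119 is filled (adjusted p below 0.05), and Sall1 and Siglech lie left of 0 in all 3 comparisons.

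The counts in the other microglial lists are to be read against the 13.0% of all genes tested that were called in the p16 average. Of the 29 other homeostatic genes 2 rose in the p16 average, the signalling regulator gene Rgs10 (log2 0.21 ± 0.07, adjusted p = 0.0453) and the small GTPase gene Rhob (0.18 ± 0.05, adjusted p = 0.0251), and 1 fell, the nuclear corepressor gene Nrip1 (-0.16 ± 0.04, adjusted p = 0.0280). Of the 12 pan-myeloid genes 2 rose, Aif1 (0.37 ± 0.10, adjusted p = 0.0219) and the actin regulator gene Coro1a (0.20 ± 0.04, adjusted p = 0.00967), and of the 28 plaque-induced genes 1 rose, Apoe (0.17 ± 0.04, adjusted p = 0.0183), which astrocytes also express. Of the 15 tested regulators of identity 1 rose, the factor gene Jun (0.11 ± 0.04, adjusted p = 0.0482). Of the 18 ligands and partners 1 rose. That gene, Il34, rose by 0.15 ± 0.05 (adjusted p = 0.0410), with 47.4 ± 4.13 CPM in APP NLGF P16 KO, 41.8 ± 1.5 CPM in APP NLGF, 44.8 ± 5.08 CPM in P16 KO and 41.1 ± 2.14 CPM in WT (SD). Its receptor Csf1r had 0.01 ± 0.05 in the same comparison (adjusted p = 0.924). Csf1, the other ligand, had -0.13 ± 0.05 (adjusted p = 0.122). Markers of other brain cells moved in both directions in the p16 average. In lists of 10 genes each, 1 neuronal, 2 astrocyte and 1 oligodendrocyte gene rose, and 1 neuronal, 1 astrocyte and 2 endothelial genes fell. These counts too are to be read against the 13.0% of all genes tested. The vessel receptor genes Flt1 (-0.27 ± 0.07, adjusted p = 0.0157) and Kdr (-0.29 ± 0.09, adjusted p = 0.0346) fell, the dendrite gene Map2 fell (-0.43 ± 0.12, adjusted p = 0.0246) while the glutamate transporter gene Slc17a7 of neurons rose (0.15 ± 0.04, adjusted p = 0.0308), and the astrocyte gene Gfap rose (0.21 ± 0.06, adjusted p = 0.0337). The astrocyte gene Aldoc (0.20 ± 0.06, adjusted p = 0.0369) and the oligodendrocyte factor gene Olig1 (0.24 ± 0.08, adjusted p = 0.0409) also rose, and the astrocyte transporter gene Slc1a2 fell (-0.13 ± 0.04, adjusted p = 0.0343). Their part in the members' values was not tested.

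In APP NLGF P16 KO against WT 4 of 9 members rose, where 9.56% of all genes tested passed, 6.10% upwards. With 1 library left out, 456 to 4456 genes passed there, against 1857 with all. The members that rose are named next. They were Olfml3 (log2 0.47 ± 0.10, adjusted p = 0.00670), Gpr34 (0.38 ± 0.09, adjusted p = 0.0143), Tmem119 (0.33 ± 0.08, adjusted p = 0.0190) and P2ry13 (0.30 ± 0.09, adjusted p = 0.0405). All 6 APP NLGF P16 KO libraries lay above the WT mean for each of these, and for Gpr34 and P2ry13 they lay above all WT libraries, as 2.09% of genes tested did. Csf1r had 0.21 ± 0.07 (adjusted p = 0.0509) and P2ry12 0.16 ± 0.06 (adjusted p = 0.0991). Without APP NLGF 15, APP NLGF 16 and APP NLGF P16 KO 23, P2ry12 passed, with 0.20 ± 0.06 (adjusted p = 0.0153), and the other 4 calls were kept. Cx3cr1 had 0.10 ± 0.08 (adjusted p = 0.499), Siglech 0.09 ± 0.08 (adjusted p = 0.524) and Sall1 -0.09 ± 0.11 (adjusted p = 0.658). The call of Tmem119 was lost without WT 5 or without APP NLGF P16 KO 21 (adjusted p up to 0.0610), and that of P2ry13 in 10 of the 23 omissions (adjusted p up to 0.0952). No member was called with the pan-myeloid covariate, under which the estimates were 0.49 ± 0.17 for Olfml3, 0.31 ± 0.16 for Gpr34, 0.27 ± 0.16 for P2ry13 and 0.15 ± 0.14 for Tmem119. Calls over all genes were not counted with that covariate here either.

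The interaction, which asks whether the App difference depends on p16, was called for 0 of 19423 genes by edgeR, and 1021 genes (5.26%) had an unadjusted p under 0.05. Among the members 0 had an unadjusted p under 0.05, and DESeq2 called 0 of them. Estimates ran from -0.18 for Cx3cr1 to 0.16 for P2ry12. These comparisons share libraries with one another, so their values stand side by side and are not independent.

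In the order of the group means, the groups with the knock-in held the first 2 places for P2ry12, P2ry13, Cx3cr1, Csf1r, Olfml3, Siglech and Gpr34. Tmem119 ran APP NLGF P16 KO, P16 KO, APP NLGF, WT, and Sall1 ran APP NLGF, WT, APP NLGF P16 KO, P16 KO. Of the 27 steps between neighbours in these orders 1 passed the test, APP NLGF over P16 KO for Olfml3 (log2 0.42 ± 0.10, adjusted p = 0.0476). The other steps did not pass it. Siglech, whose APP NLGF and P16 KO groups are at the ends of its order, differed between them by 0.39 ± 0.09 (adjusted p = 0.0288), and Siglech, Olfml3 and Cx3cr1 did not overlap between those groups. In that comparison 0.608% of genes tested were called, 0.412% upwards, and 1.35% did not overlap upwards. Of the members not called there, Sall1 had 0.33 ± 0.11, P2ry13 0.29 ± 0.10, Gpr34 0.29 ± 0.09, Cx3cr1 0.25 ± 0.09, Csf1r 0.20 ± 0.07 and P2ry12 0.10 ± 0.06, while Tmem119 had -0.09 ± 0.09 (adjusted p between 0.177 and 0.632). Without the 3 libraries that stood apart, the estimates were larger and the calls were lost, with 0.47 ± 0.11 for Olfml3 (adjusted p = 0.0742) and 0.42 ± 0.10 for Siglech (adjusted p = 0.0730). Omitting single libraries ended the call of Olfml3 in 16 of 23 cases (adjusted p up to 0.136) and that of Siglech without P16 KO 7, 8, 11 or 12 or APP NLGF 15 or 17 (up to 0.137).

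The 9 genes did not vary as 1 unit between mice of the same genotype. With each library set against its genotype mean in log2 CPM, the 36 pairs of members had a median Pearson r of 0.198 over the 23 libraries, and 14 of the pairs were negative. The values are descriptions, and the libraries share the subtraction of a genotype mean. Cx3cr1 and Siglech were most alike (r = 0.733, Spearman rho = 0.799), followed by Tmem119 and Csf1r (r = 0.688, rho = 0.653). Cx3cr1 also went with Csf1r (r = 0.548) and Sall1 (r = 0.547). P2ry12 went with Gpr34 (r = 0.5), and P2ry13 with Olfml3 (r = 0.498). P2ry12 ran against Sall1 (r = -0.548, rho = -0.385) and Csf1r (r = -0.536, rho = -0.575). Neighbours on chromosome 3, P2ry12 and P2ry13 had r = 0.15. Against the mean of the other 8 members, r ran from -0.134 for P2ry12 to 0.560 for Tmem119.

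**Figure D5:**
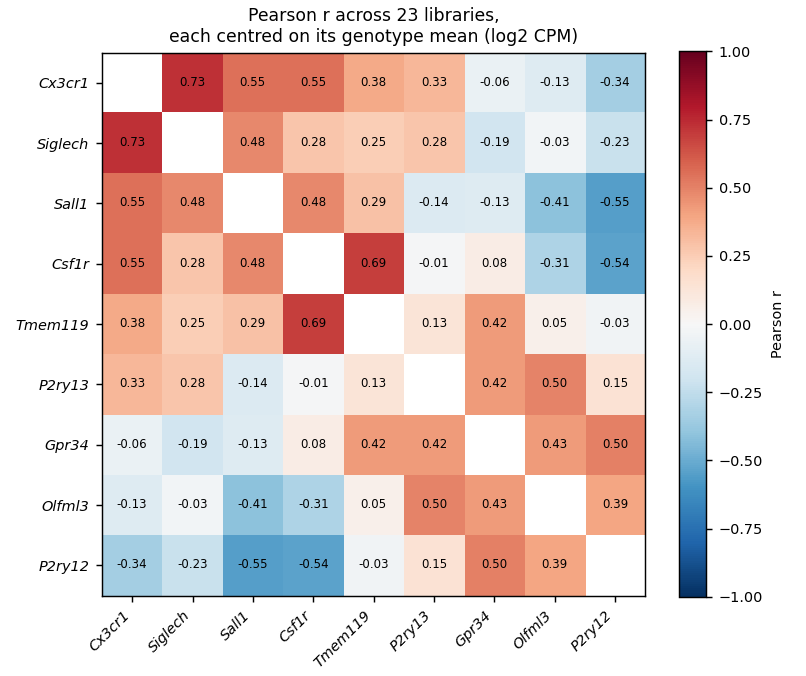
Pearson r between each pair of homeostatic genes (colour and number), from log2 CPM of 23 libraries, each less its genotype mean. A block of Cx3cr1, Siglech, Sall1 and Csf1r is red, with 0.73 as the highest value, and the pairs of P2ry12 with Sall1 and Csf1r are the lowest, at -0.55 and -0.54.

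A broad axis of the libraries moved with some of these members. The first principal component of all genes within genotypes, 12.6% of that variance, had r = 0.595 with Sall1, 0.545 with Siglech, 0.536 with Cx3cr1 and -0.453 with P2ry12 over the 23 libraries. With the other members its r ran from -0.32 for Olfml3 to 0.206 for Csf1r, and was -0.154 for Tmem119. The part of this component in the pairs above was not tested. Over the 23 libraries, the genes most like the mean of the 9 members within genotypes were Hk3, a hexokinase gene (r = 0.759, rho = 0.726), Selplg (r = 0.740), Alb (r = 0.736), Smyd5 (r = 0.724), Ccna1 (r = 0.699), Eefsec (r = 0.694), Tnfrsf8 (r = 0.689) and Myh7 (r = 0.681). Without P16 KO 7 and APP NLGF P16 KO 22, the 2 libraries farthest from the others in the members' mean, r was 0.683 for Hk3, 0.706 for Selplg and between 0.533 and 0.675 for the other 6. These genes were picked for the highest r among the 19423 tested, so their r is raised by the choice, also in the check without 2 libraries. Whether such r arises without any relation was not tested.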

How the data were processed

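Hippocampal poly-A RNA of 23 mice was sequenced from stranded libraries as single-end reads. The values are raw counts, which the authors made per gene from uniquely aligned reads falling unambiguously in 1 gene (STAR 2.7.10b, Ensembl annotation), per the series' design text; trimming used cutadapt 4.2, per the submitters' processing notes. The deposited counts were not normalised. The sources name GRCm38, and also mm39. GENCODE M21, an annotation of GRCm38, shared 37060 genes with the table, and start and end were the same for 36795 of them and for all 9 members, so positions are in GRCm38. The deposited median transcript length, in bases, was not used for levels. Exon length is the union of annotated exons.

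Here edgeR 4.0.16 (R 4.3.3, limma 3.58.1) was run with TMM normalisation, a minimum count of 10 (filterByExpr with the 4 genotypes), robust quasi-likelihood F tests, 1 model for the 23 libraries. Tests were two-sided, and p was adjusted by Benjamini-Hochberg across 19423 genes, with calls made at 0.05. Replicates varied with a common dispersion of 0.0249 (coefficient of variation 15.8%). CPM used TMM library sizes, and correlations used log2 CPM with a prior count of 2. Cdkn2a was under the filter and was compared with exact permutation tests. Intervals are at 95% with 19 degrees of freedom. The procedure was tested on simulated data. Mice are the replicates, 1 library each. Batches are not given in the labels. Xist was above the genes of the Y chromosome in 3 of 6 APP NLGF P16 KO, 2 of 5 APP NLGF, 3 of 6 P16 KO and 3 of 6 WT libraries.

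The members and all gene lists were chosen with earlier results of these data known. By rule, all members were described, as were called genes of each list (up to 6 by smallest p in the App average, or the 2 most abundant), 8 ligands and regulators, and the 8 genes most like the members' mean, leaving out predicted genes. In the p16 comparisons and the interaction some members are given by their range. Genes named from the p16 average were chosen after their values were seen. Alternatives were DESeq2 1.42.0, RLE size factors, other count filters, non-robust dispersion, models of only the groups compared, covariates (sex score, pan-myeloid level) and omission of each library. Some genes of the lists are not reported here.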

Additional observations from a re-analysis of the deposited data

Results flagged for a closer look

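Each member was examined in each genotype for a library far from the others of its group, 36 sets of values in all, and 2 stood out by Dixon's test at the 95% level. Chance flags about 1 in 20 such sets. Csf1r was lowest in WT library 5, at 72.4 CPM, with the other WT libraries between 84.3 and 90.9 CPM (gap over range 0.641, critical value 0.625). P2ry12 was highest in WT library 1, at 50.9 CPM, with the other WT libraries between 44.1 and 46.4 CPM (gap over range 0.658, critical value 0.625). Leaving out WT 1 added P2ry12 to the members called in APP NLGF P16 KO against WT.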

How the results depend on the processing

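No paired analysis was possible because the sample numbers run from 1 to 23 and no genotypes share one. The number of members called changed as follows. Calls over all genes follow each. They are given for the main fit, the omissions of 1 library and the alternatives without a covariate, in that order. For the covariate fits they were not counted. In the App average, 3 became 0 with the pan-myeloid covariate and 5 with DESeq2, and leaving out 1 library gave 2 to 4. With no count filter edgeR also called Csf1r there (adjusted p = 0.0444). Genes called there were 154, 110 to 159 and 127 to 287. In APP NLGF against WT, 1 became 0 with that covariate and 0 without APP NLGF 15, APP NLGF 16 and APP NLGF P16 KO 23, an omission chosen after seeing the data, and leaving out 1 library gave 0 to 1. Genes called there were 62, 47 to 72 and 45 to 149. In APP NLGF P16 KO against P16 KO, 0 became 1 with no count filter, with DESeq2 and without those 3 libraries, and leaving out 1 library gave 0 to 1. Genes called there were 48, 29 to 61 and 19 to 103. In P16 KO against WT, 0 became 1 with DESeq2, and leaving out 1 library gave 0 to 1. Genes called there were 60, 7 to 239 and 42 to 479. Leaving out 1 library gave 0 to 1 in APP NLGF P16 KO against APP NLGF, 0 to 3 in the p16 average and 0 to 0 in the interaction. Genes called were 6, 2 to 4156 and 0 to 618 in the first of these. They were 2522, 762 to 5117 and 1364 to 3394 in the p16 average. In the interaction they were 0, 0 to 0 and 0 to 1. In APP NLGF P16 KO against WT, 4 became 0 with the covariate, and leaving out 1 library gave 2 to 5. DESeq2 also called Csf1r there (adjusted p = 0.0406), and the edgeR fit without the 3 libraries also called P2ry12 (adjusted p = 0.0153). With no count filter P2ry13 lost its edgeR call (adjusted p = 0.0552). Genes called there were 1857, 456 to 4456 and 604 to 4511. In APP NLGF against P16 KO, 2 became 1 without robust dispersion, 0 with the covariate and 0 without the 3 libraries, and leaving out 1 library gave 0 to 2. Genes called there were 118, 50 to 206 and 70 to 311.

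Signs reversed as follows, and the cause was not tested. With the pan-myeloid covariate, Csf1r had -0.0302 in APP NLGF against WT and -0.0667 in APP NLGF P16 KO against WT. In APP NLGF P16 KO against P16 KO, Tmem119 had -0.105, Cx3cr1 -0.0937 and Csf1r -0.0609, and in the App average Tmem119 had -0.0415, Cx3cr1 -0.0342 and Csf1r -0.0455. Without the 3 libraries, Sall1 had -0.0095 in APP NLGF against WT and -0.0027 in the App average. Leaving out 1 library, Tmem119 ran from -0.018 to 0.0711 and Cx3cr1 from -0.0010 to 0.131 in APP NLGF P16 KO against P16 KO. The call of Olfml3 in APP NLGF against WT was lost without any one of WT 1, 2, 4 or 5 or APP NLGF 13, 14, 15 or 17 (adjusted p up to 0.101). RLE size factors, the filter of 15 reads in at least 3 libraries, fits of the compared groups alone and the sex score kept every member count within 1.5 times. Over 45 single member results and 9 alternatives other than omissions, 358 values kept their side of the threshold and their sign, 9 gained a call, 15 lost one and 10 reversed.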
